A study of Mus musculus with 13 samples.

Results

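Desmoplakin (Dsp), the plakophilins Pkp1, Pkp2 and Pkp3, the tetraspan protein Perp, and the plakins periplakin (Ppl) and envoplakin (Evpl) were followed in squamous epithelium of the mouse upper digestive tract in control mice and in mice with a floxed p120-catenin gene. The 7 genes were chosen by symbol, as components or partners of the cytoplasmic plaque of the desmosome and as linkers between that plaque and the cornified envelope. They are 7 of the 19934 genes that the array read through a probe set with 1 gene name. Each had 1 probe set, and all 7 were among the 15875 genes tested, which had a log2 intensity above 5 on at least 3 arrays. Pkp2 was above that level on 6 of 13 arrays and the others on all 13. Matched by symbol, the probe sets were 10404649 (Dsp), 10358124 (Pkp1), 10433887 (Pkp2), 10558795 (Pkp3), 10361887 (Perp), 10437516 (Ppl) and 10393197 (Evpl).

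Desmosomes are buttons of adhesion that join the keratin filaments of neighbouring cells. Their cadherins span the membrane, plakoglobin and the plakophilins bind the cadherin tails inside the cell, and desmoplakin ties this plaque to keratin. Plakophilins belong to the same armadillo family as p120-catenin, which instead binds and stabilises classical cadherins at adherens junctions. In the upper, flattening layers of stratified epithelium, periplakin and envoplakin pair with each other at desmosomes and become part of the first scaffold of the cornified envelope, the cross-linked protein shell beneath the membrane of the outermost cells.

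RNA came from epithelium freed from the tissue beneath by dispase, and all animals carried L2-Cre on a mixed C57Bl/6 and 129 strain background. L2-Cre places the recombinase under the ED-L2 promoter of Epstein-Barr virus, which is active in squamous epithelium of the mouth, esophagus and forestomach, so the controls carry Cre as well. The groups were esophagus of Cre/p120 +/+ controls (animals 214, 216 and 217), esophagus of Cre/p120 flox/flox animals (193, 307, 313 and 335), forestomach of the same 3 controls, and forestomach masses of Cre/p120 flox/flox animals (412, 426 and 510). Since all forestomach tissue from flox/flox animals was taken from masses, genotype and mass cannot be told apart in that tissue. The labels used here give no age. Sex was assigned from the arrays, by the level of Xist against that of Y-linked genes. Each control group had 1 female and 2 males, flox/flox esophagus 3 females and 1 male, and the masses 2 females and 1 male. Sex was thus uneven between the genotypes. The deposited values are array intensities after the authors' GCRMA step, used here as log2 levels. Arrays had a median intensity of 65.3 to 72.4, and precision is limited by how few arrays there are.

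All 9 squamous epithelium markers exceeded log2 5 on every array, and their mean log2 level lay between 11.44 and 12.04. Other cells were unevenly present. The mass of animal 426 had a mean log2 level of 11.65 over 8 glandular stomach markers, against 5.24 to 5.86 on the other 12 arrays. Its 6 smooth muscle markers averaged 11.18, the highest of 13 arrays, with 10.29 in control esophagus 214, 10.08 in flox/flox esophagus 307, 8.19 to 8.50 in flox/flox esophagus 335, mass 412 and control forestomach 214, and 5.52 to 6.70 on the other 7. The esophagus of control 214 and of flox/flox animals 307 and 335 averaged 8.21 to 9.85 over 12 skeletal muscle markers, against 5.62 to 6.09 elsewhere. Where leaving out these arrays changed a call of one of the 7 genes, the value without them is given. In such bulk samples, fewer cells of a type and less RNA per cell cannot be told apart. Ctnnd1, the floxed gene, averaged 10.26 ± 0.14 (SD, n = 3) in control forestomach and 9.70 ± 0.20 (SD, n = 3) in the masses, a fall of 0.56 log2 units by limma (adjusted p = 0.0145). In the esophagus the control mean was 10.35 ± 0.14 (SD, n = 3) and the flox/flox mean 10.05 ± 0.08 (SD, n = 4), a difference of -0.29 that was not called (limma adjusted p = 0.637).

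Desmoplakin is the plakin that anchors keratin to the plaque. Its log2 level in control esophagus was 12.99 in animal 214, 12.93 in 216 and 12.88 in 217, and in flox/flox esophagus 13.15 in animal 193, 13.03 in 307, 13.04 in 313 and 13.22 in 335. In control forestomach it was 12.80, 12.71 and 12.79 in animals 214, 216 and 217, and in the masses 13.06, 12.84 and 13.07 in animals 412, 426 and 510. All 4 flox/flox esophagus arrays stood above the 3 control esophagus arrays, and all 3 masses stood above the 3 control forestomach arrays, the mass of 426 by the smallest margin.

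Plakophilin 1 clusters desmoplakin in the plaque and is the plakophilin typical of upper layers in stratified epithelium. Pkp1 measured 12.14, 12.07 and 11.99 on the log2 scale in the esophagus of controls 214, 216 and 217, and 12.27, 12.24, 12.08 and 12.27 in the esophagus of flox/flox animals 193, 307, 313 and 335. The forestomach values were 11.46, 11.33 and 11.48 in controls 214, 216 and 217 and 11.96, 11.47 and 11.80 in the masses of 412, 426 and 510. Control forestomach was the low group, and the mass of animal 426 lay inside its range. The flox/flox esophagus of animal 313 fell inside the control esophagus range.

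Plakophilin 3 binds the widest set of desmosomal partners and is found through the living layers. Its log2 level was 10.25, 10.26 and 10.12 in the esophagus of controls 214, 216 and 217, and 10.20, 10.21, 10.28 and 9.99 in that of flox/flox animals 193, 307, 313 and 335. Control forestomach gave 9.86, 9.83 and 9.96 in the same 3 controls, and the masses gave 10.17 in 412, 9.48 in 426 and 10.15 in 510. The mass of 426 was the lowest of all 13 arrays, while the other 2 masses were above every control forestomach array.

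Plakophilin 2 is the plakophilin of simple epithelia and heart muscle, and of the basal layer in stratified epithelia. Its probe set was near the level of the filter on most arrays: the log2 level was 4.88, 4.99 and 4.75 in control esophagus (214, 216, 217) and 4.86, 4.80, 5.09 and 5.13 in flox/flox esophagus (193, 307, 313, 335). Control forestomach measured 4.65, 5.01 and 4.60 (214, 216, 217), and the masses 5.51 in 412, 7.66 in 426 and 5.28 in 510. All 3 masses were above the other 10 arrays, and the mass of 426, the array with the glandular stomach markers, stood far above the rest.

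PERP is a tetraspan membrane protein of the desmosome and a target of p63, the master regulator of stratified epithelium. Its log2 level was 12.58, 12.56 and 12.71 in control esophagus (214, 216, 217) and 12.76, 12.62, 12.73 and 12.67 in flox/flox esophagus (193, 307, 313, 335). It was 12.71, 12.71 and 12.76 in control forestomach (214, 216, 217) and 12.76, 12.53 and 12.75 in the masses (412, 426, 510). These 13 values spanned the narrowest range among the 7 genes, and the mass of 426 was the lowest of them.

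Periplakin links the envelope scaffold to keratin. Its log2 level was 12.58, 12.52 and 12.45 in control esophagus (214, 216, 217), and 12.03, 12.54, 12.42 and 12.20 in flox/flox esophagus (193, 307, 313, 335). It was 12.32, 12.28 and 12.23 in control forestomach (214, 216, 217) and 11.65, 11.63 and 11.83 in the masses (412, 426, 510). The masses were the 3 lowest arrays of all, and animals 193 and 335 were low among the esophagus arrays.

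Envoplakin is its partner, and the 4 flox/flox esophagus animals had the same order for both genes. Evpl measured 11.19, 11.14 and 11.05 on the log2 scale in control esophagus (214, 216, 217) and 10.38, 11.15, 11.01 and 10.70 in flox/flox esophagus (193, 307, 313, 335). Control forestomach gave 11.10, 11.06 and 11.08 (214, 216, 217) and the masses 9.86, 10.08 and 10.34 (412, 426, 510). The control arrays of both tissues lay close together, the masses were the 3 lowest arrays, and animal 193 reached almost to the highest mass.

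**Figure D1:**
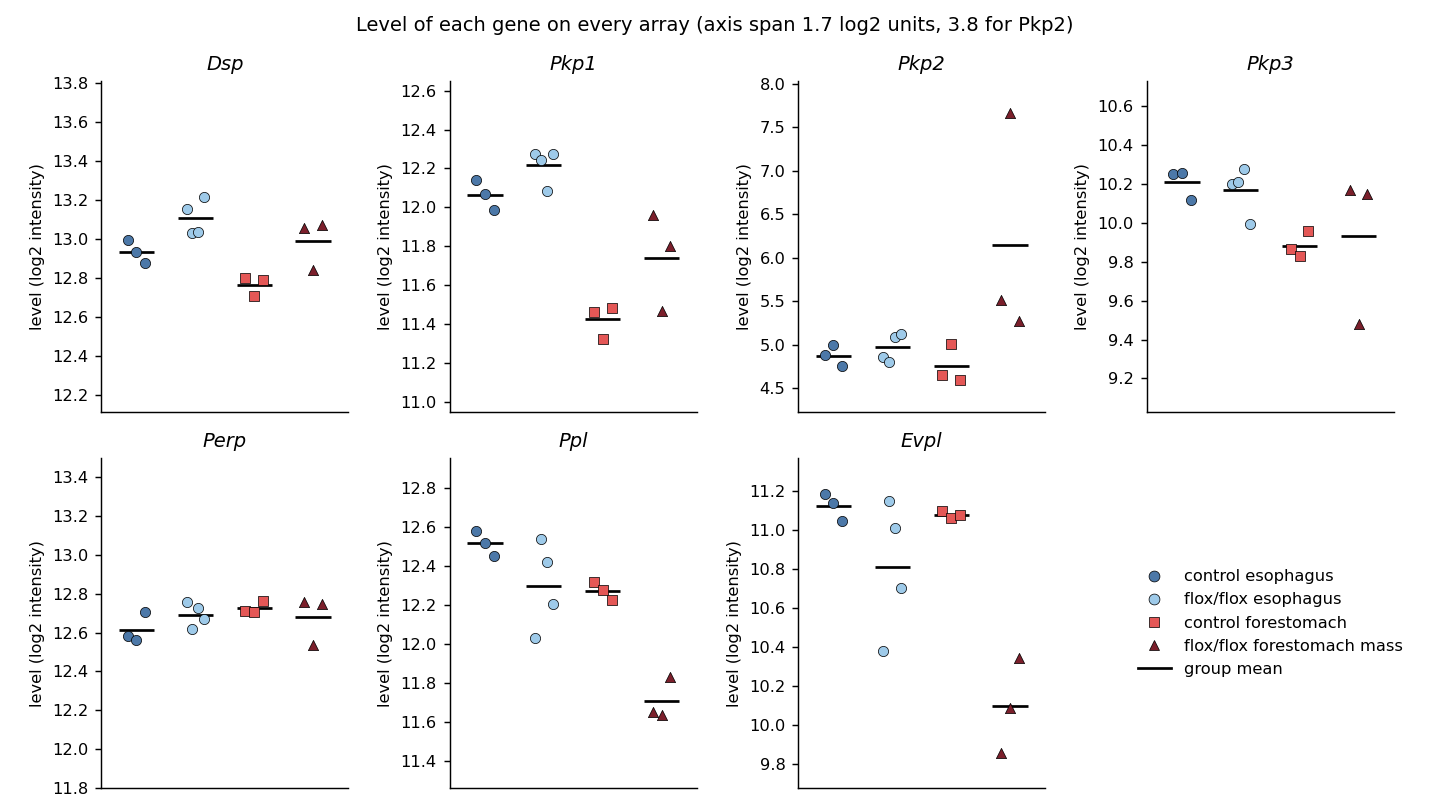
The log2 level of each of the 7 genes is plotted for each of the 13 arrays, by group, with 1 point per animal and a bar at the group mean. Ppl and Evpl are lowest in the 3 masses, Pkp1 is lowest in control forestomach, and Pkp2 has 1 high array, the mass of animal 426 at 7.66.

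In the forestomach, the comparison of masses with control epithelium shows which of these genes differ where p120 loss and a mass occur together. Both envelope linkers were called lower and no member was called higher. Evpl averaged 11.08 ± 0.02 (SD, n = 3) in control forestomach and 10.09 ± 0.24 (SD, n = 3) in the masses, a difference of -0.98 log2 units (SE 0.18, 95% interval -1.38 to -0.59), or 1.98-fold lower, with an adjusted p of 0.00633 by limma with Benjamini-Hochberg adjustment over all 15875 genes. Ppl went from 12.27 ± 0.05 to 11.70 ± 0.11 (SD, n = 3 each), a difference of -0.57 (SE 0.12, 95% interval -0.84 to -0.30) and 1.48-fold lower (limma adjusted p = 0.0148). Thus 2 of 7 members passed the threshold of 0.05, both lower, where 8.40% of all genes tested were called lower and 2.31% higher, 10.7% in all.

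The plaque genes did not pass in the masses. Dsp was 0.23 log2 units higher (SE 0.09, limma adjusted p = 0.159) and Pkp1 0.32 higher (SE 0.12, limma adjusted p = 0.126). Pkp2 was 1.39 higher (SE 0.46), from control levels near the filter, with a limma adjusted p of 0.0777 and group means of 4.75 ± 0.22 and 6.15 ± 1.31 (SD, n = 3 each). Pkp3 differed by 0.05 (SE 0.16, limma adjusted p = 0.894) and Perp by -0.05 (SE 0.09, limma adjusted p = 0.815). Before adjustment 5 of 7 members had p under 0.05, against 24.8% of all genes. The groups of Dsp, Pkp2, Ppl and Evpl did not overlap, nor did those of 27.9% of all genes. The median difference of the 7 was 0.05, and that of all genes tested was 0.0062.

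The number of plaque genes called changed with single masses and with the processing. Without the mass of animal 426, Pkp1 was 0.46 higher (limma adjusted p = 0.0192) and Pkp2 0.64 higher (limma adjusted p = 0.0247), so that 4 of 7 members were called, with Ppl at -0.53 (adjusted p = 0.0349) and Evpl at -0.98 (adjusted p = 0.0135). Pkp2 was also called without the mass of 510, at 1.83 (limma adjusted p = 0.0217), and with array weights, at 1.68 (adjusted p = 0.0283). Pkp1 was called under quantile normalization, at 0.41 (limma adjusted p = 0.0338). The call for Ppl was lost without control forestomach 214 (adjusted p = 0.0600) or 216 (adjusted p = 0.0515), and in a fit of the 6 forestomach arrays alone (adjusted p = 0.0570), where Evpl had a limma adjusted p of 0.0313. Evpl remained called with each of the 13 arrays left out in turn.

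**Figure D2:**
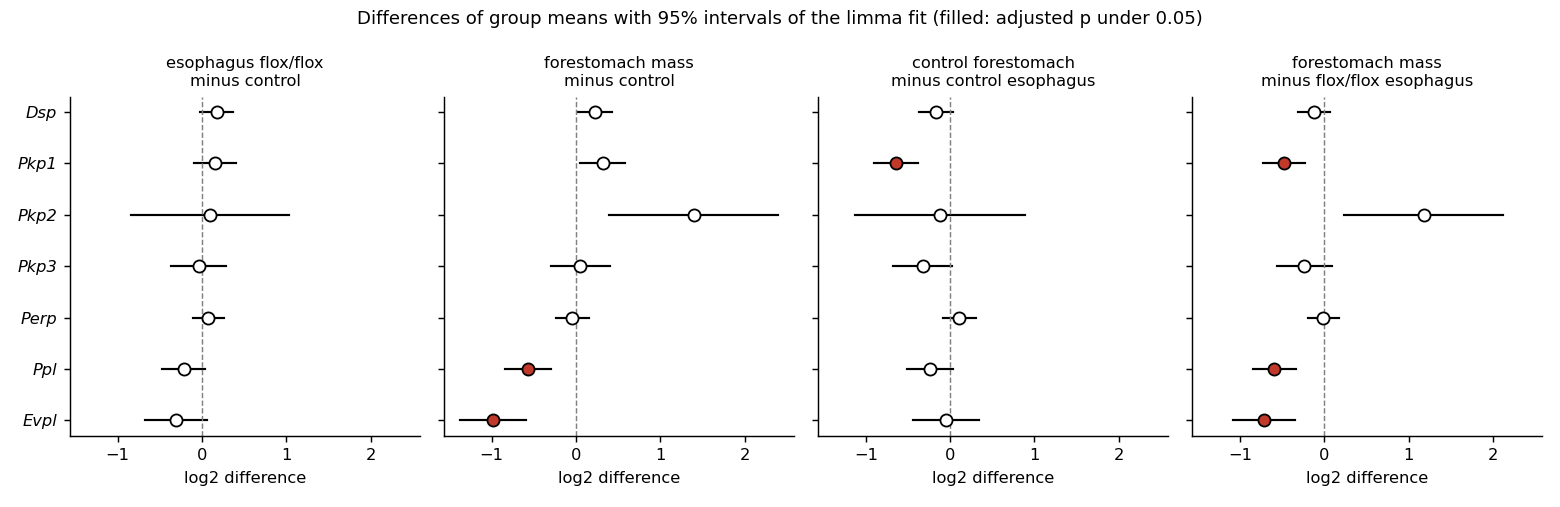
Each point is a difference in log2 level between group means for one of the 7 genes, by comparison, with its 95% interval from the fit; filled points passed a limma adjusted p of 0.05. Ppl and Evpl lie below 0 in both comparisons of the masses, and Pkp1 lies below 0 with a filled point in control forestomach against control esophagus and in the masses against flox/flox esophagus.

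In the masses, where the envelope linkers were lower, markers of some other cell types were higher, leukocyte markers among them. The 9 markers were Ptprc, Cd3e, Cd3g, Itgam, Adgre1, Csf1r, Cd79a, S100a9 and Laptm5. Their mean log2 level was 5.77, 5.68 and 6.21 in control forestomach (214, 216, 217) and 7.43, 6.65 and 7.04 in the masses (412, 426, 510), with 7 to 8 markers above log2 5 on every array. Ptprc, the pan-leukocyte marker CD45, ranged from 5.43 to 6.15 in control forestomach and from 6.73 to 7.66 in the masses. With the leukocyte mean as a covariate in the fit, Evpl differed by -0.61 (limma adjusted p = 0.108) and Ppl by -0.35 (adjusted p = 0.235), so neither was called. Over all genes the count went from 1700 to 160 in that fit, and the leukocyte means of controls and masses did not overlap. The part of leukocytes in the result was not tested further. The mean of 8 endothelium markers was 5.48 to 6.22 in control forestomach and 6.38 to 7.41 in the masses, without overlap, and that of 8 fibroblast markers 6.70 to 7.60 and 7.39 to 9.14. With the fibroblast mean as a covariate 2 members were called, as without it, and the part of endothelium was not tested. Over the same arrays the squamous marker mean was 11.44 to 11.60 in controls and 11.49 to 11.67 in the masses. That mean pooled markers that went opposite ways. Krt4 was 13.62 to 13.65 in controls and 12.73 to 13.33 in the masses, and Krt13 was 13.77 to 13.82 and 13.38 to 13.69. Krt5 was 12.32 to 12.50 in controls and 12.51 to 13.01 in the masses, and Epcam was 8.40 to 8.66 and 8.92 to 9.51. The groups of Krt14, Krt15, Trp63, Cdh1 and Sfn overlapped. The part of squamous layers in the result was not tested.

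In the esophagus, flox/flox epithelium was compared with control epithelium to see the genotype without a labelled mass. None of the 7 genes was called by limma, and 2 of all genes tested (0.0126%) were. Before adjustment no member had p under 0.05, against 6.98% of all genes. For Dsp the control mean was 12.94 ± 0.06 (SD, n = 3) and that of flox/flox esophagus 13.11 ± 0.09 (SD, n = 4), which was 0.17 higher (SE 0.09, limma adjusted p = 0.760). It was the only member whose groups did not overlap in this tissue, and 4.18% of all genes were higher without overlap. Pkp1 was 0.15 higher (SE 0.11, adjusted p = 0.903), Perp 0.08 higher (SE 0.08, adjusted p = 0.972), Pkp2 0.09 higher (SE 0.43, adjusted p = 0.998), and Pkp3 differed by -0.04 (SE 0.15, adjusted p = 0.998). For Ppl the control mean was 12.52 ± 0.06 (SD, n = 3) and the flox/flox mean 12.30 ± 0.23 (SD, n = 4), a difference of -0.22 (SE 0.12, adjusted p = 0.782). Evpl was 11.12 ± 0.07 (SD, n = 3) and 10.81 ± 0.34 (SD, n = 4), a difference of -0.31 (SE 0.17, adjusted p = 0.786).

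The wide spread of the envelope linkers came from the flox/flox side. Relative to the control mean, Evpl was -0.74 in animal 193, -0.42 in 335, -0.11 in 313 and 0.03 in 307, and Ppl was -0.49, -0.31, -0.10 and 0.02 in the same order. Leukocyte markers ran the opposite way over the same order of animals. Their mean log2 level was 7.98 in 193, 7.33 in 335, 6.53 in 313 and 6.02 in 307, against 5.67 to 6.47 in control esophagus. The masses had no such opposite order: the leukocyte mean was 7.43 in 412, 7.04 in 510 and 6.65 in 426, and Evpl was 9.86, 10.34 and 10.08. Skeletal muscle markers did not follow the order of the esophagus animals, at 5.62 in 193, 9.85 in 335, 5.85 in 313 and 8.21 in 307. With the leukocyte mean as a covariate, the esophagus difference was -0.02 for Evpl and -0.04 for Ppl, and with the skeletal muscle mean it was -0.34 and -0.24. Without the 3 muscle-rich arrays it was -0.40 and -0.26. None of these values was called, and limma adjusted p was at least 0.727 for each. The part of either cell type was not tested beyond these fits.

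The change in the masses was then set against the change in the esophagus. No member differed between the tissues by limma, and 0.139% of all genes did. Before adjustment 1 member, Evpl, had p under 0.05, against 10.5% of all genes. The change in forestomach minus that in esophagus was -0.67 for Evpl (SE 0.25, unadjusted p = 0.0183, adjusted p = 0.345), -0.35 for Ppl (SE 0.17, adjusted p = 0.516) and 1.30 for Pkp2 (SE 0.63, adjusted p = 0.514). Without the mass of 426 the value for Pkp2 was 0.54 (limma adjusted p = 0.293) and that for Pkp1 0.30 (adjusted p = 0.397). For Dsp it was 0.05 (SE 0.13), for Pkp1 0.17 (SE 0.17), for Pkp3 0.09 (SE 0.22) and for Perp -0.12 (SE 0.12). The fall of Evpl and Ppl in the masses was therefore not shown to differ from their values in the esophagus.

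Within single arrays, the plaque gene Dsp and the envelope linker Evpl parted. The log2 ratio of Dsp to Evpl, relative to the control mean of the same tissue, lay between -0.04 and 0.02 on the 6 control arrays. It was 0.96 in flox/flox esophagus 193, 0.07 in 307, 0.21 in 313 and 0.70 in 335. In the masses it was 1.51 in 412, 1.07 in 426 and 1.04 in 510. The ratio was thus above all control values on every flox/flox array, closely so in 307. With Ppl in place of Evpl the ratio was 0.70, 0.07, 0.20 and 0.59 in the 4 flox/flox esophagus arrays in that order, and 0.91, 0.72 and 0.75 in the masses, with the highest control array at 0.07. This ratio was looked at with the single values known and was not tested.

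**Figure D3:**
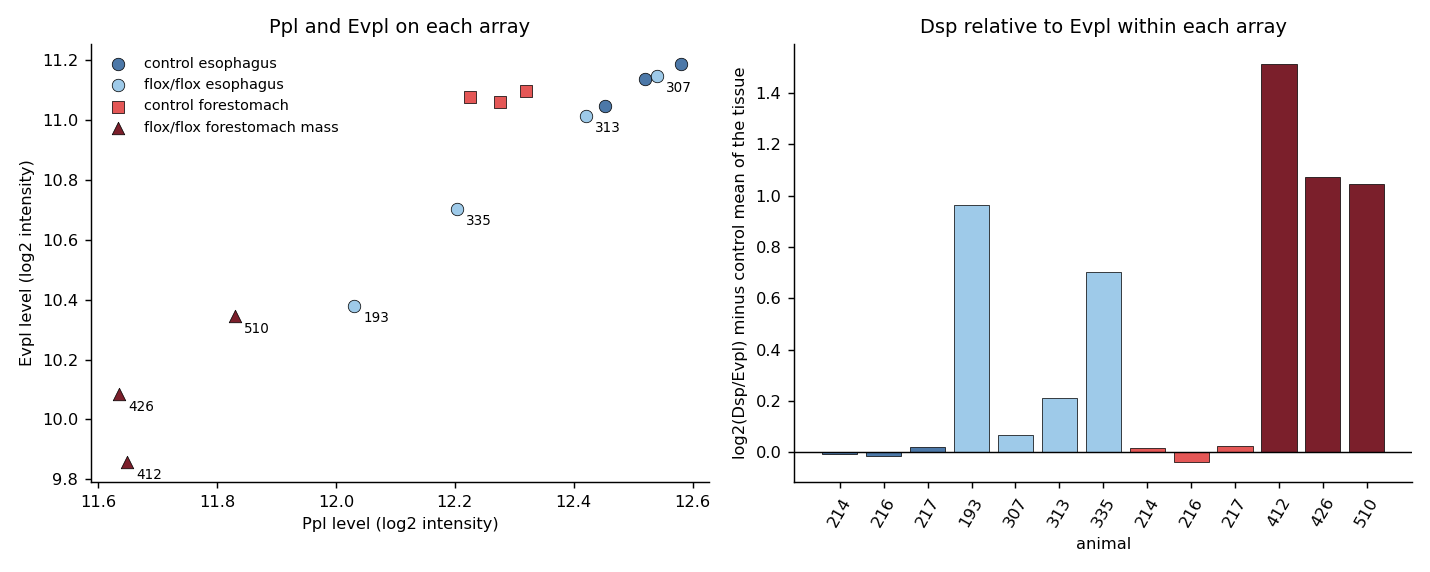
The left panel plots the log2 level of Evpl against that of Ppl for the 13 arrays by group, with the 6 control arrays and flox/flox esophagus 307 and 313 at the upper right, the 3 masses at the lower left, and flox/flox esophagus 193 and 335 between them. The bars of the right panel give the log2 ratio of Dsp to Evpl on each array minus the control mean of its tissue, near 0 on the control arrays, 0.96 and 0.70 in 193 and 335, and 1.04 to 1.51 in the masses.

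Control forestomach and control esophagus came from the same 3 animals and show how the genes differ between squamous tissues without the floxed alleles. Pkp1 was lower in forestomach, at 11.42 ± 0.09 against 12.07 ± 0.07 (SD, n = 3 each), a difference of -0.64 (SE 0.12) and 1.56-fold (limma adjusted p = 0.00834). It was the 1 member called of 7, where 3.16% of all genes were called lower and 6.67% in either direction. Per animal the Pkp1 difference was -0.68 in 214, -0.74 in 216 and -0.50 in 217. Pkp3 differed by -0.33 (SE 0.16, limma adjusted p = 0.269), or -0.39, -0.43 and -0.16 per animal. Ppl differed by -0.24 (SE 0.12, adjusted p = 0.288), with -0.26, -0.24 and -0.23 per animal, and Dsp by -0.17 (SE 0.09, adjusted p = 0.328), with -0.19, -0.23 and -0.09.

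Perp was 0.11 higher in forestomach (SE 0.09, limma adjusted p = 0.519), with 0.13, 0.15 and 0.06 in the 3 animals. Evpl (-0.04, adjusted p = 0.912) and Pkp2 (-0.12, adjusted p = 0.908) had signs that differed between animals. The groups of Dsp, Pkp1, Pkp3, Ppl and Perp did not overlap, and neither did those of 37.3% of all genes. With the animal as a replicate block, which uses this pairing, the count over all genes went from 1059 to 2670 and Pkp1 was still the only member called (limma adjusted p = 0.000986). Without the 3 muscle-rich esophagus arrays, which leaves 2 control esophagus arrays, Pkp1 was at -0.60 and not called (limma adjusted p = 0.0815). Over all genes 479 were called in that fit.

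Masses were also compared with flox/flox esophagus, which share the genotype and differ in tissue and in the mass. Here 3 of 7 members were lower by limma, where 5.06% of all genes were called lower. Ppl differed by -0.59 (SE 0.12, adjusted p = 0.0127), Evpl by -0.72 (SE 0.17, adjusted p = 0.0271) and Pkp1 by -0.48 (SE 0.11, adjusted p = 0.0294). Of the others, Pkp2 was 1.18 higher (SE 0.43, adjusted p = 0.118; 0.42 and adjusted p = 0.102 without the mass of 426), Pkp3 differed by -0.24 (SE 0.15, adjusted p = 0.340), Dsp by -0.12 (SE 0.09, adjusted p = 0.414) and Perp by -0.01 (SE 0.08, adjusted p = 0.938). All 3 calls were lost in a fit of only these 7 arrays (limma adjusted p = 0.166 for Pkp1, 0.120 for Ppl and 0.164 for Evpl) and without the 3 muscle-rich esophagus arrays (0.159, 0.0840 and 0.133). Over all genes the count went from 1112 to 100 in the first of these fits and to 441 in the second. Pkp1 lost its call without flox/flox esophagus 193 (0.0731), 307 (0.0691) or 335 (0.0630) or the mass of 426 (0.0592), and Evpl without 307 (0.0634) or 313 (0.0691). Over all genes 638 to 845 were called without a single flox/flox esophagus array, and 1369 without the mass of 426.

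The order of the 4 group means differed between the genes. For Evpl it ran control esophagus, control forestomach, flox/flox esophagus and masses, and only the last step passed the test. For Ppl it ran control esophagus, flox/flox esophagus, control forestomach and masses, and again only the last step passed. Without the 3 muscle-rich arrays control forestomach (12.27) came before flox/flox esophagus (12.23) for Ppl. The last step was then from flox/flox esophagus to masses for both genes, and it was called for neither. In the same fit both genes stayed called in the masses against control forestomach. For Pkp1 it ran flox/flox esophagus, control esophagus, masses and control forestomach, with no neighbouring pair called, though without the mass of 426 the last step was, as given above. The ends of that order for Pkp1 differed by -0.79 (SE 0.11, limma adjusted p = 0.00103), in a comparison where 13.3% of all genes were called. Dsp ran flox/flox esophagus, masses, control esophagus and control forestomach, again with no neighbours called and with ends that differed by -0.34 (SE 0.09, limma adjusted p = 0.0245). No pair of groups was called for Pkp2, Pkp3 or Perp. The masses against control esophagus, which differ in tissue, genotype and mass, gave -0.81 for Ppl (limma adjusted p = 0.00249) and -1.03 for Evpl (adjusted p = 0.00467), where 12.7% of all genes were called.

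Across the 13 arrays, described without a test and sharing tissue and marker differences, Ppl and Evpl had a Pearson correlation of 0.95, and 0.95 again for their deviations from the group means. Dsp and Pkp1 had 0.85 (deviations 0.84), and Pkp1 and Pkp3 0.75 (deviations 0.73). Pkp2 and Pkp3 had -0.66 (deviations -0.90), a value in which the mass of 426 is the highest array for Pkp2 and the lowest for Pkp3. Without that mass Pkp2 and Pkp3 had 0.28 (deviations -0.24), Pkp1 and Pkp3 0.78 (deviations -0.0029), Dsp and Pkp1 0.85 (deviations 0.66), and Ppl and Evpl 0.94 (deviations 0.96). Over all 13 arrays Ppl and Evpl had -0.13 and -0.36 with Dsp, 0.30 and 0.02 with Pkp1, 0.46 and 0.26 with Pkp3, -0.67 and -0.64 with Pkp2, and -0.22 and -0.17 with Perp. Without the mass of 426 these were -0.31 and -0.54 with Dsp, 0.14 and -0.18 with Pkp1, and 0.12 and -0.15 with Pkp3. With Pkp2 they were then -0.65 and -0.75, and with Perp -0.71 and -0.56. Among the plaque genes Perp had 0.10 with Dsp and -0.10 with Pkp1, and -0.03 and -0.38 without that mass.

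The genes most like each member over the 13 arrays were listed by Pearson correlation, as a description. Evpl was nearest to Creg1 (0.98), Asprv1 (0.98), a protease that processes filaggrin, and Phldb3 (0.97). Ppl was nearest to Pdlim2 (0.99), Crct1 (0.97), a gene of the epidermal differentiation complex, and Il1r2 (0.97), the decoy receptor of interleukin 1. Il1r2 ranged from 9.45 to 9.61 in control forestomach and from 7.61 to 7.93 in the masses. It ranged from 10.26 to 10.48 in control esophagus, and within flox/flox esophagus it was lowest in 193 (8.27) and 335 (8.98). Pkp2 was nearest to Duox2 (0.98), Krt18 (0.98), a keratin of simple epithelium, and Rhpn2 (0.98). All 3 had their highest level on the mass of 426, with Krt18 at 10.49 there and at 5.44 to 6.76 on the other arrays. Without that mass their correlations with Pkp2 were 0.87, 0.77 and 0.74.

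For the remaining members, Dsp was nearest to Fkbp8 (0.96), Ap5s1 (0.95) and Sptan1 (0.92), the spectrin chain of the membrane skeleton. Pkp1 was nearest to Btbd3 (0.98), Rpl10 (0.96) and Eif4g2 (0.95). Pkp3 was nearest to Dcaf4 (0.94), Rnf222 (0.94) and Tmigd1 (0.93), and Perp to Riok3 (0.92), Hat1 (0.91) and Slc35f6 (0.90).

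**Figure D4:**
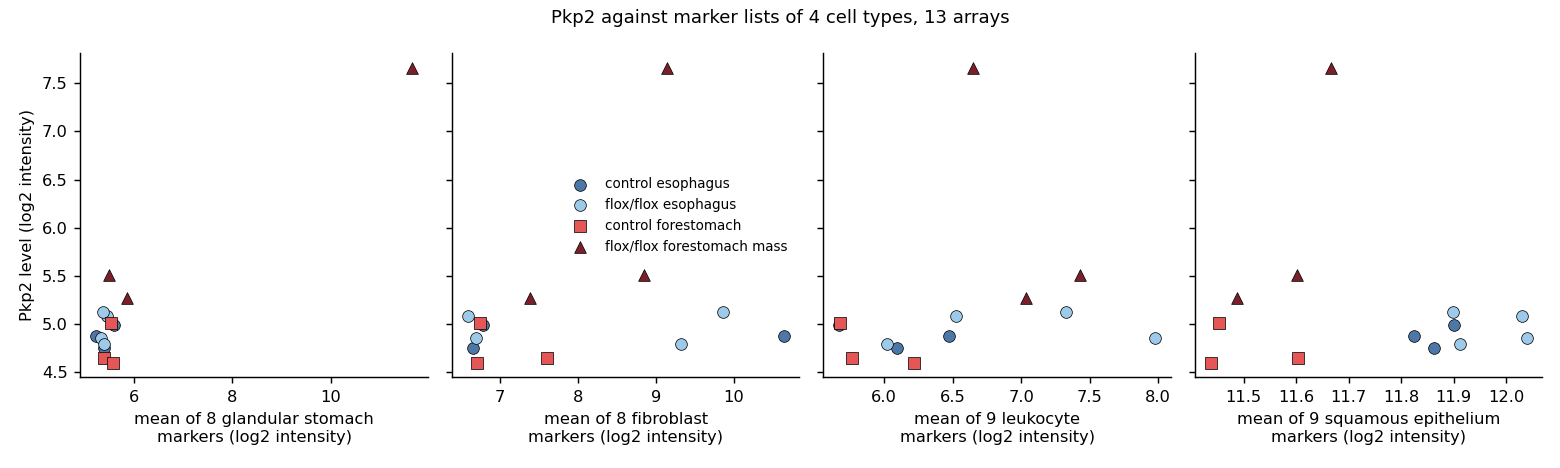
Each panel plots the log2 level of Pkp2 against the mean log2 level of a marker list (glandular stomach, fibroblast, leukocyte or squamous epithelium) for the 13 arrays, by group. The mass of 426, at a Pkp2 level of 7.66, stands alone on the glandular stomach axis at 11.65, where the other 2 masses are at 5.49 and 5.86, and lies within the range of the other arrays on the other axes.

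The genes that work with these 7 were counted in lists by role. In the masses against control forestomach, 2 of 6 desmosomal cadherins and plakoglobin rose, Dsc2 by 3.40 (limma adjusted p = 6.78e-05) and Dsg3 by 1.37 (adjusted p = 0.00258), the binding partners of the plaque proteins. Jup, which encodes plakoglobin, differed by -0.03 (adjusted p = 0.879). Among 4 other plakins, Eppk1 (epiplakin, a keratin-binding plakin) fell by 1.27 (adjusted p = 0.0021), and among 4 members of the p120 family Ctnnd1 fell. The median of each list was 0.24, -0.16 and 0.02, against 0.0062 over all genes. These counts were the same without the mass of 426.

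Among 37 cornified envelope genes tested, 5 rose and 6 fell in the masses, with a list median of -0.05. Of all genes tested, 2.31% were called higher and 8.40% lower in this comparison, which is the background for each list here. Scel, which encodes the envelope protein sciellin, differed by -0.90 (limma adjusted p = 0.00762), Cst6, a cystatin that limits transglutaminase activation, by -1.39 (adjusted p = 0.00981) and Lce3f by -1.20 (adjusted p = 0.0194). Stfa3 was 2.48 higher (adjusted p = 0.0112), from a cluster of near-identical stefin genes that one probe set may not separate. Tgm1, the transglutaminase that cross-links the envelope, differed by -0.23 (adjusted p = 0.511). Without the mass of 426, 9 rose and 5 fell, and without the 3 muscle-rich esophagus arrays 3 rose and 4 fell. Those esophagus arrays are in neither group compared here, so leaving them out changes the fitted spread and not the differences. Over all genes the count went from 1700 to 1415 without them.

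Of 16 squamous keratins, the filaments that desmoplakin, periplakin and envoplakin bind, 4 rose and 3 fell in the masses. Krt16 was 6.24 higher (limma adjusted p = 0.000742), Krt17 3.77 (adjusted p = 0.00214) and Krt6a 5.52 (adjusted p = 0.00293), the last with a near-identical paralog, while Krt76 differed by -2.33 (adjusted p = 0.00351). Of 17 regulators of desmosomal and envelope genes, 2 rose and 2 fell. Grhl1, a grainyhead factor known to act on desmosomal cadherin genes, differed by -0.49 (adjusted p = 0.00661) and Pitx1 by -0.33 (adjusted p = 0.0499), while Maf was 0.82 (adjusted p = 0.00668) and Elf3 1.63 (adjusted p = 0.0231) higher. Of 15 adherens junction and hemidesmosome genes, Ctnnb1 (beta-catenin) was 0.44 higher (adjusted p = 0.0196) and Afdn (afadin) differed by -0.36 (adjusted p = 0.0335). Without the mass of 426, 5 keratins rose and 4 fell, 1 regulator rose and 1 fell, and 2 junction genes rose and 0 fell. Without the 3 muscle-rich esophagus arrays neither Ctnnb1 nor Afdn was called by limma, though their differences in the masses do not depend on those arrays.

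In esophagus by genotype, limma called 0 genes in each of these lists, and 17 of their 99 tested genes had an unadjusted p under 0.05, against 6.98% of all genes. Dsg3, not called, was 11.39 to 11.52 in control and 12.06 to 12.81 in flox/flox esophagus, and 4.18% of all genes were higher there without overlap. Dsc2, also not called, averaged 11.99 ± 0.14 (SD, n = 3) in control and 12.45 ± 0.23 (SD, n = 4) in flox/flox esophagus. Of the 6 genes in their list, 4 were above 0 and 2 below in this comparison, with a median of 0.09. Between control tissues, forestomach differed by -3.44 in Dsc2 (limma adjusted p = 9.54e-06) and by 1.10 in Eppk1 (adjusted p = 0.00306). In that comparison 3.51% of all genes were called higher and 3.16% lower. Of 37 envelope genes 8 were higher and 3 lower, and 4 of 16 keratins were higher and 1 lower, led by Krt1 at 7.42 (adjusted p = 4.35e-07). Among junction genes 1 of 15 was higher and 4 were lower, among them Col17a1 at -0.64 (adjusted p = 0.00929), and of the regulators 1 of 17 was higher and 2 were lower. Without the 3 muscle-rich arrays these counts were 5 and 1 for envelope genes, 4 and 0 for keratins, 1 and 2 for junction genes and 0 and 1 for regulators. The masses against flox/flox esophagus had 7 envelope genes higher and 6 lower, 4 keratins higher and 3 lower, and 5 junction genes lower, where 1.95% of all genes were called higher and 5.06% lower. Without the mass of 426 the envelope genes had 13 higher and 5 lower. Without the 3 muscle-rich arrays 3 envelope genes were higher and 4 lower, and 3 junction genes were lower.

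**Figure D5:**
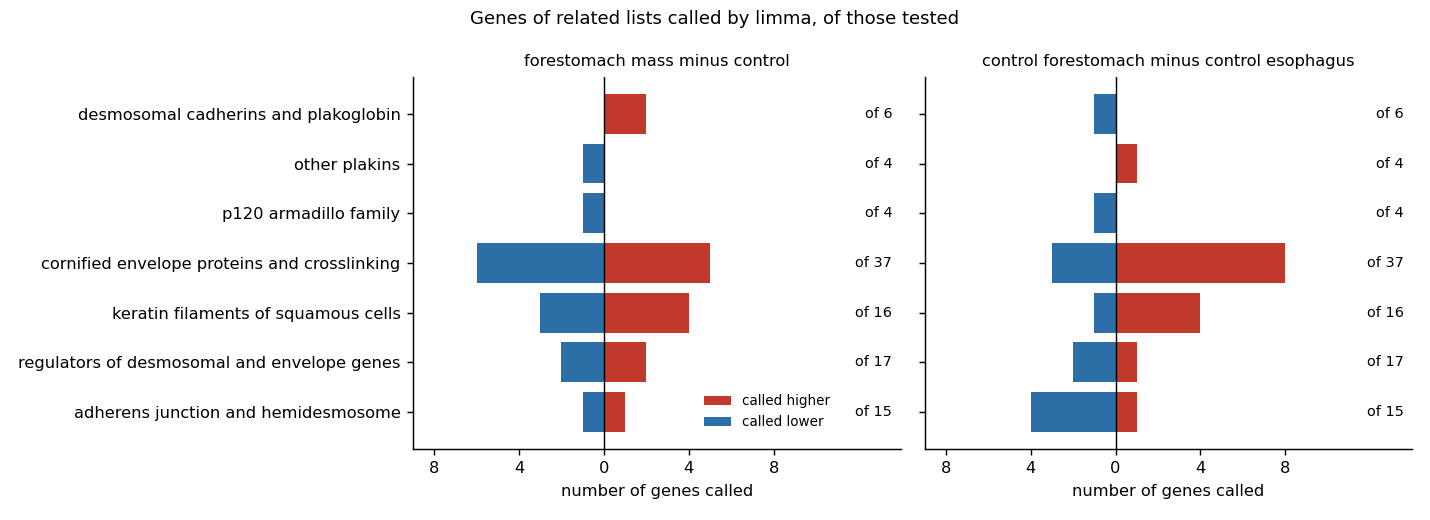
Bars give the number of genes in each list called higher (right of 0) or lower (left of 0) by limma at an adjusted p under 0.05, with the number tested at the right of each panel. The left panel compares the masses with control forestomach, where 5 envelope genes rose and 6 fell, and the right panel compares control forestomach with control esophagus, where 8 were higher and 3 lower.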

How the data were processed

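RNA from 13 epithelial samples in 4 groups was measured on a mouse Affymetrix gene array. The deposited intensities are linear and come from the authors' GCRMA step, per the submitters' processing notes; its version is not given in the sources used here. Of 34729 probe sets, 21633 had 1 gene in the platform annotation, 1306 several and 11790 none. Intensities were put on the log2 scale (no value was below 1), probe sets above 5 on at least 3 arrays were kept, and the probe set with the highest mean stood for a gene. This left 15875 of 19934 genes. Group means of all 13 arrays were fitted in 1 model with limma 3.58.1 in R 4.3.3 (lmFit, eBayes, 9 residual degrees of freedom), with Benjamini-Hochberg adjustment over all genes and a threshold of 0.05. The script was tested on simulated data.

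The 7 genes, the related lists and the markers were chosen with earlier results of these data known. The text names all 7 genes, the 3 genes most correlated with each over the arrays, and from each list at most 4 called genes per comparison, taken by smallest adjusted p. Jup, Tgm1 and Ptprc were added after their values were seen. Esophagus values of Dsg3, Dsc2 and Ctnnd1, called in the masses but not by genotype in esophagus, are given outside that rule. Control esophagus and forestomach came from the same animals by their labels. Deviations from the group means correlated across genes at 0.40, 0.40 and 0.31 for the same animal and at -0.43 to 0.13 for different animals. The fit has no block, and the animal as a replicate block is an alternative, as are filters, scaling, array weights, covariates and arrays left out. Raw array files were not used here.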

Additional observations from a re-analysis of the deposited data

Results flagged for a closer look

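Pkp1 in flox/flox esophagus had 1 array far from the others. Animal 313 was at a log2 level of 12.08, and the other 3 lay between 12.24 and 12.27, a gap of 0.838 of the group's range. This was the only group large enough to be looked at in this way, with 7 genes in it, and chance flags about 1 in 20 such sets of values.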

How the results depend on the processing

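No member was called for the esophagus or for the difference between tissues under any alternative, with 0 to 0 members called when single arrays were left out. For the masses against control forestomach, 2 members were called, and 1 in a fit of only the arrays compared, 0 with the leukocyte mean as a covariate, 3 under quantile normalization (Pkp1 joined) or with array weights (Pkp2 joined), 4 without the mass of 426 and the 3 muscle-rich arrays together, and 1 to 4 with single arrays left out. For the control tissues 1 member was called, and 2 in a fit of only the arrays compared (Pkp3 joined), 0 without the 3 muscle-rich arrays, and 1 to 1 with single arrays left out. For the masses against flox/flox esophagus 3 members were called, and 1 after median centring or with the skeletal muscle mean as a covariate, 0 with only the arrays compared, with array weights, without the 3 muscle-rich arrays, or without these and the mass of 426, and 1 to 3 with single arrays left out. The fibroblast, leukocyte and combined alternatives, and the correlations and orders of means with arrays left out, were added after seeing the data.

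With the animal as a random replicate block (consensus correlation 0.396), the members called stayed at 0, 2, 0, 1 and 3 in the 5 comparisons. The fixed replicate block over the control arrays called 1 member and 2348 genes. The block changed no call of a member, but over all genes it moved the difference between tissues from 22 to 145. With sex as a covariate the numbers of members called were also 0, 2, 0, 1 and 3.

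Signs that reversed belonged to values that were not called. For Pkp3 in esophagus they were 0.0059 under quantile normalization and 0.049 without the 3 muscle-rich arrays, with or without the mass of 426 (main -0.04). For Pkp3 in the masses against control they were -0.049 with array weights and -0.024 with the leukocyte covariate, and for its difference between tissues -0.028 with array weights. Perp reversed to 0.026 in the masses against control without the mass of 426 and the 3 muscle-rich arrays. Against flox/flox esophagus Perp went to 0.0101 under quantile normalization, 0.028 after median centring and 0.0104 without those 4 arrays. Dsp went to -0.13 in the difference between tissues under quantile normalization, Evpl to 0.0061 between control tissues after median centring, and Pkp2 to -0.049 in esophagus with sex as a covariate. With single arrays left out, Perp ran from -0.085 to 0.026 in the masses against control and from -0.051 to 0.060 against flox/flox esophagus. Pkp3 ran from -0.086 to 0.018 in esophagus, from -0.068 to 0.28 in the masses against control and from -0.027 to 0.32 in the difference between tissues. The cause of these changes was not tested. Pkp2 has no value under the stricter filter, and the difference between tissues has no fit of only the arrays compared.

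Over all genes, the number called ranged over the alternatives from 0 to 13 (main 2) in esophagus, from 160 to 1968 (main 1700) in the masses against control, from 5 to 145 (main 22) for the difference between tissues, from 479 to 3802 (main 1059) between control tissues and from 100 to 1308 (main 1112) in the masses against flox/flox esophagus. With single arrays left out these counts were 0 to 7, 753 to 2232, 10 to 372, 543 to 1565 and 638 to 2364.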
